A study of Mus musculus with 12 samples.

Results

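The receptor genes for acetylcholine, serotonin, dopamine, noradrenaline and adrenaline, histamine and the opioid peptides were examined in the brains of mice that had a stroke after bone marrow (BM) transplantation. They were chosen by gene symbol and by a minimum number of reads. Of 49315 genes listed, 56 carried a symbol of these families and 52 of them had at least 20 reads over the 12 mice. *Chrng* (32 reads) and *Drd4* (51 reads) lay just inside this limit, and *Htr3b* (6 reads), *Hrh4* (5 reads), *Chrna9* (4 reads) and *Chrnd* (0 reads) lay outside it. The symbol rule did not take in the adrenergic receptor gene *Adra2c*, which is not counted below.

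Irradiated CD45.1 male recipients, whose heads were shielded, received BM in which 10% of cells came from CD45.2 donors and 90% from *Tet2*-sufficient CD45.1 donors. The 10% came from *Tet2*-knockout (*Tet2*-KO) donors in one group (n = 6) and from wildtype (WT) littermates in the other (n = 6), so the recipients' own brain cells carried intact *Tet2* in both. All 12 mice had a 30 min occlusion of the middle cerebral artery and their brains were taken 14 d later. Anaesthesia was with ketamine and xylazine, an agonist of alpha adrenergic receptors, and all mice were given buprenorphine, an opioid receptor ligand. Titles and genotype entries of the labels gave the groups, although in the *Tet2*-KO mice the treatment entry reads as in the controls. The labels give the tissue as brain, and the study's text names whole brains in one place and hemispheres in another, so the part used is not certain.

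These receptors are how the modulatory transmitter systems of the brain reach their targets. Small groups of neurons in the brainstem, midbrain, basal forebrain and hypothalamus release the transmitters over wide areas, and the receptors that read them sit mostly on other neurons. Most are coupled to G proteins: Gs raises cyclic AMP, Gi lowers it, and Gq activates phospholipase C. The nicotinic receptors and the serotonin receptor built on *Htr3a* are instead ion channels made of several subunits.

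Depth lay between 12000261 and 21049763 counts per mouse, and levels are given as CPM, read counts scaled to a common depth after TMM. Of the 52 receptor genes, 48 passed the filter on low counts and were tested among 20290 genes. The 4 that did not pass were *Chrna10* (69 reads), *Chrne* (119 reads), *Chrng* and *Drd4*. Brain identity was clear from the markers, with summed levels per mouse of 2863 to 5104 CPM for 8 neuron genes, 5644 to 7036 CPM for 6 astrocyte genes and 3454 to 5103 CPM for 4 oligodendrocyte genes. A pair of libraries stood apart from the others of their group. WT replicate 2 was lowest in neuron markers (2863 CPM, with the other WT mice from 3779 to 4173) and highest in markers of microglia and macrophages (2088 CPM), and *Tet2*-KO replicate 5 was at 1199 CPM in the latter, where the other *Tet2*-KO mice were at 209 to 814.5. For part of the results, values without either or both of these mice are also given.

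The receptor genes covered a wide range of levels, which can be compared between genes only per kilobase of exon. *Chrm1*, a Gq-coupled muscarinic receptor of cortex and hippocampus, was at 19.6 ± 3.96 CPM per kilobase (SD, n = 6) in WT brains. *Hrh3*, the Gi-coupled histamine receptor found on nerve terminals, was at 19.4 ± 1.72 CPM per kilobase, which is within the spread of *Chrm1*. Next in order were *Chrm4* at 13.5 ± 2.04, *Chrna4* at 11.2 ± 1.48, *Adra1d* at 10.99 ± 2.12 and *Oprl1* at 9.95 ± 0.721 CPM per kilobase, and each of these overlapped the next within 1 SD, whereas *Chrm4* and *Hrh3* did not overlap. At the other end were the muscle subunit gene *Chrng* at 0.0360 CPM per kilobase and *Drd4* at 0.0887. The dopamine receptor genes of the striatum, *Drd2* (6.72 ± 0.728 CPM per kilobase) and *Drd1* (5.63 CPM per kilobase), stood well above *Drd3* (0.763) and *Drd5* (0.541). *Drd5* shares 48.6% of its exon bases with *Gm26560*, so its level is uncertain.

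**Figure D1:**
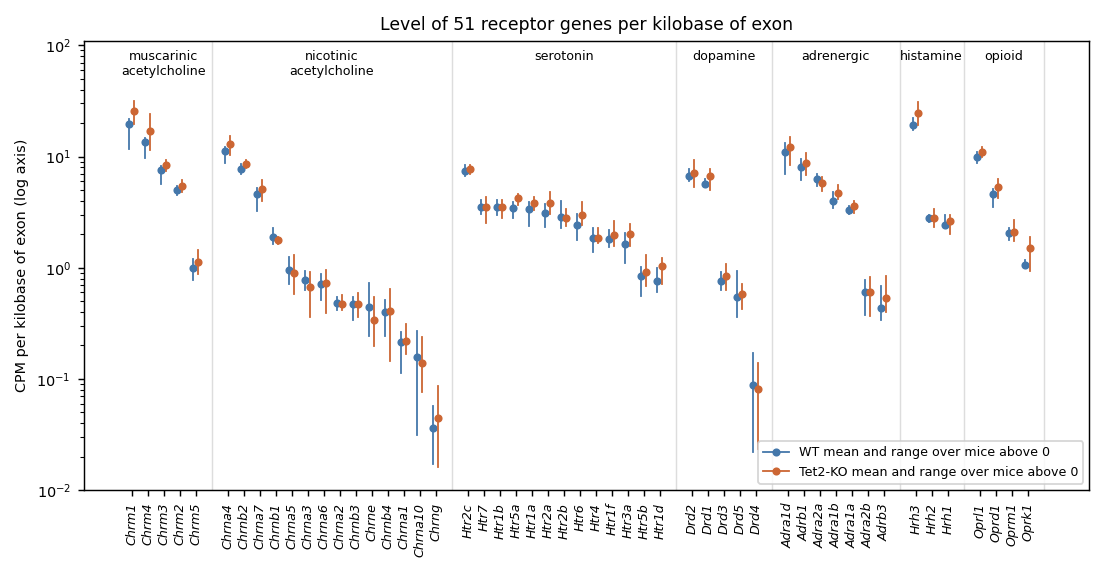
Level of 51 of the 52 receptor genes in CPM per kilobase of exon on a log axis, by family, with the mean of each group of 6 mice as a point and the range over the mice above 0 as a line. *Chrm1* and *Hrh3* stand highest in WT brains at 19.6 and 19.4, and the ranges of WT and *Tet2*-KO overlap for every gene drawn.

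Muscarinic receptors held 22.7% ± 1.84 (SD, n = 6) of the receptors' summed level per kilobase in WT brains and 24.6% ± 1.46 in *Tet2*-KO brains. This share ranged from 19.0% to 23.8% in WT mice, of which WT replicate 2 had the lowest *Chrm1*, *Chrm3* and *Chrm4* levels. The shares were not computed without that mouse. The serotonin family held 17.9% ± 0.530 and 17.2% ± 1.24, the adrenergic family 17.2% ± 0.684 and 16.2% ± 0.933, and the nicotinic family 14.7% ± 0.598 and 14.1% ± 0.814. Histamine receptors took 12.1% ± 0.692 and 12.8% ± 0.981, opioid receptors 8.66% ± 0.526 and 8.56% ± 0.596, and dopamine receptors 6.77% ± 0.910 and 6.50% ± 0.840. No scaling enters these shares, and the ranges of the groups overlapped for each of the 7 families.

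Between the groups, no receptor gene passed an adjusted p of 0.05 in edgeR's quasi-likelihood test (lowest adjusted p = 0.115), where 5 of all tested genes did (0.0246%). Without adjustment, 11 of the 48 receptor genes (22.9%) had a p below 0.05 and were higher in *Tet2*-KO, against 10.8% of all tested genes, and none was lower, against 12.2%. The log2 fold change was above 0 for 39 of the 48 receptor genes, and for 52.3% of all tested genes. Its median was 0.12 over the receptor genes and 0.01 over all tested genes. In bulk tissue, fewer cells of a type and less RNA per cell cannot be told apart. No receptor gene had every *Tet2*-KO mouse above every WT mouse, which held for 0.453% of all tested genes, and none had every one below, which held for 0.641%. With the DESeq2 Wald test 3 receptor genes passed an adjusted p of 0.05, *Oprk1*, *Hrh3* and *Chrnb2*, all higher in *Tet2*-KO, as were 2.71% of all tested genes. With edgeR without *Tet2*-KO replicate 5 there were 6, the same 3 with *Drd1*, *Htr1d* and *Htr5a*, and 3.7% of all tested genes passed in this direction. With limma-voom the 3 past the adjusted threshold were *Oprk1*, *Hrh3* and *Drd1*, all higher, as were 2.8% of all tested genes. With edgeR without both WT replicate 2 and *Tet2*-KO replicate 5 the same 3 passed, against 2.65% of all tested genes in this direction.

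These directions depended on what the counts were scaled to. Of 8 neuron markers, 7 had an unadjusted edgeR p below 0.05, all higher in *Tet2*-KO (median log2 fold change 0.24), and of 6 markers of cortical projection neurons 5 did (median 0.26). All these markers had at least 3000 reads, a range in which 18.1% of all tested genes were higher at this threshold. The summed neuron markers ranged from 2863 to 4173 CPM in WT mice and from 3736 to 5104 CPM in *Tet2*-KO mice. When library sizes were set to the summed neuron markers, the median of the receptor genes was -0.14 and that of all tested genes -0.26. Such a scaling shifts all genes by nearly the same amount, so it leaves the place of the receptor genes among all genes almost as it was by construction. Under neuron marker scaling none of the 48 receptor genes was higher at an unadjusted p below 0.05, against 0.0887% of all tested genes, and 4 were lower (*Adra2a*, *Chrna5*, *Chrnb1* and *Hrh2*), against 35.1%. With TMM scaling, markers of microglia and macrophages moved the other way from neuron markers. Of 7 such markers 6 were lower at an unadjusted p below 0.05 (median log2 fold change -0.88), against 12.2% of all tested genes. Their sums ranged from 953 to 2088 CPM in WT and from 209 to 1199 CPM in *Tet2*-KO mice. The part of this cell type in the receptor values was not tested.

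**Figure D2:**
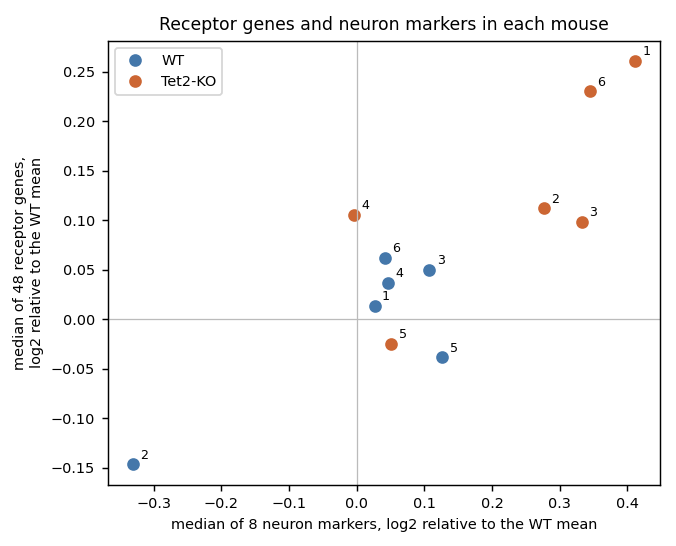
Median of 48 receptor genes against the median of 8 neuron markers in each of the 12 mice, both as log2 relative to the WT mean, with replicate numbers beside the points. WT replicate 2 is lowest in both (-0.15 and -0.33), *Tet2*-KO replicate 1 is highest in both (0.26 and 0.41), and *Tet2*-KO replicate 5 lies among the WT mice at -0.02 and 0.05. *Tet2*-KO replicate 4 also lies among the WT mice in neuron markers (-0.004), with a receptor median of 0.11.

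The families differed in how many of their genes were higher, although no test between families was made. Over all tested genes 52.3% had a log2 fold change above 0. All 5 muscarinic, 4 dopamine and 4 opioid receptor genes tested had a log2 fold change above 0, with medians of 0.18, 0.12 and 0.18. The serotonin family had 12 of 13 above 0 (median 0.14), the adrenergic family 7 of 8 (median 0.11) and the histamine family 2 of 3 (median 0.11). Nicotinic subunit genes were divided, with 5 above and 6 below 0 and a median of -0.0022. Of the G protein-coupled receptors, 16 of 17 coupled to Gi, 9 of 10 coupled to Gq and 8 of 9 coupled to Gs were above 0, against 6 of 12 channel subunits. Depth differed along with this: of the 20 receptor genes with at least 3000 reads in all, 7 were higher at an unadjusted p below 0.05, as were 18.1% of all tested genes in that range. Of the 24 with 300 to 3000 reads 4 were, against 5.45%, and of the 4 with fewer than 300 reads 0 were, against 3.54%. These directions hold for TMM scaling, and with neuron marker scaling 10 of the 48 receptor genes and 6.74% of all tested genes were above 0.

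**Figure D3:**
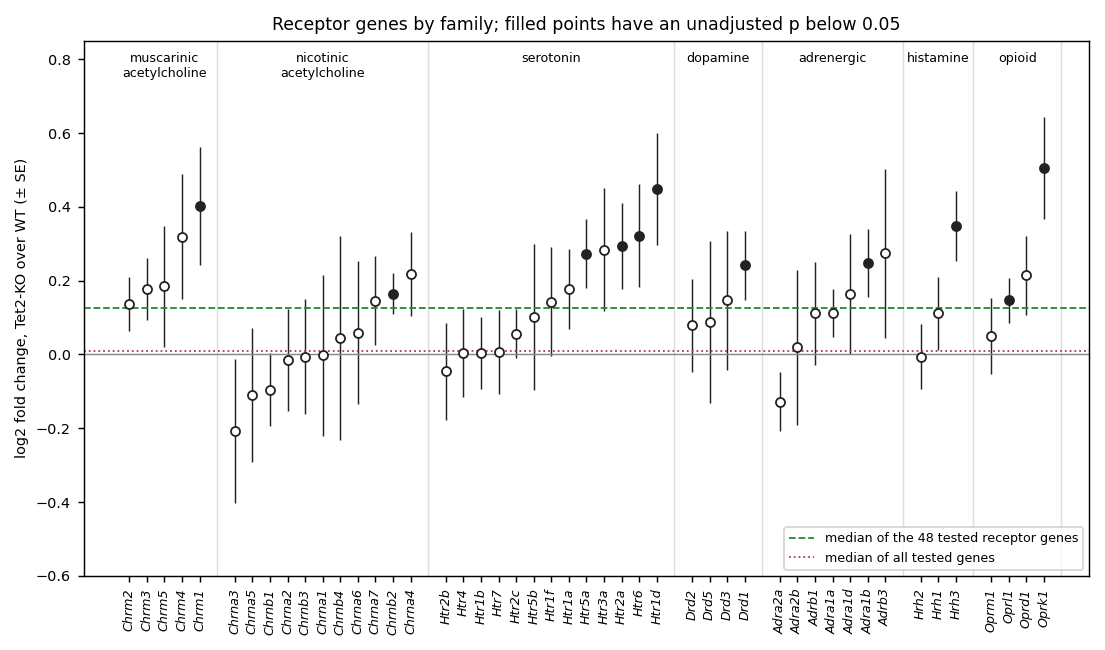
Log2 fold change of *Tet2*-KO over WT with its standard error for 47 of the 48 tested receptor genes, grouped by family, with dashed and dotted lines at the medians of the receptor genes (0.12) and of all tested genes (0.01). The 11 filled points have an unadjusted p below 0.05 and all lie above 0, with *Oprk1* highest at 0.51 and *Chrna3* lowest of all points at -0.21.

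The sequences before the start of the genes with the smallest p are shown so that the genes can be located and compared by their promoters. RefSeq (GRCm38.p6) promoters were at hand for 40 of the 52 receptor genes, with 53 promoters in all, among 32851 promoters in the table. *Oprk1* was not among them. The stretches printed lie upstream of the annotated start, at chr2:180104489-180104657 (minus strand) for *Hrh3*, chr3:89764633-89764882 (minus strand) for *Chrnb2*, chr4:136423274-136423523 (plus strand) for *Htr1d* and chr5:27841697-27841946 (plus strand) for *Htr5a*. Capitals mark GC boxes (GGGCGG) and CCAAT boxes (CCAAT), searched on both strands.
Hrh3: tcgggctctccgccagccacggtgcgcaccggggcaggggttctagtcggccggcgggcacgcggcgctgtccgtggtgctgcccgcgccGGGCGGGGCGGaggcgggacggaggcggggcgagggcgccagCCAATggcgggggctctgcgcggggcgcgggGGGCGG
Chrnb2: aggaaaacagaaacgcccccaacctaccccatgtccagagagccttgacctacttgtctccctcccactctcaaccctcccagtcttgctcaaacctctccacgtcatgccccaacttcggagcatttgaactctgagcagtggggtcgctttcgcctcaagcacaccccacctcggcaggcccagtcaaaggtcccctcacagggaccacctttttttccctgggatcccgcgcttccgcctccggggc
Htr1d: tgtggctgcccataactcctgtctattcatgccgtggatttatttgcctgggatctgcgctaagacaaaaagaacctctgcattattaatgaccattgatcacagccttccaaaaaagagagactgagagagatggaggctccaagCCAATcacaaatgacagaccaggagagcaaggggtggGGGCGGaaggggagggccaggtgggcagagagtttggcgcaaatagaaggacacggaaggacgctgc
Htr5a: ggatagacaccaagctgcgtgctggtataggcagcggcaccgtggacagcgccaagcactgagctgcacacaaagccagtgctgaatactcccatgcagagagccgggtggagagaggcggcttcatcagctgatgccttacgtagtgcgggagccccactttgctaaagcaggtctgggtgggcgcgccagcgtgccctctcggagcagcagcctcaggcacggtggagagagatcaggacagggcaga
The *Hrh3* stretch held 3 GC boxes, of which the first pair overlapped, and 1 CCAAT box, at a GC content of 82.8%. *Htr1d* held 1 of each at a GC content of 51.6%, whereas neither motif was found in these letters for *Chrnb2* and *Htr5a*. Over the 250 bases before each start, a GC box was present in 49.1% of the receptor promoters and in 32.7% of all promoters. The CCAAT box was in 24.5% and 33.8%, and the TATA box (TATAAA) in 5.66% and 12.4%. A full cyclic AMP response element (TGACGTCA) was in 0 of the 53 receptor promoters and in 1.55% of all promoters. The median GC content was 59.6% for receptor promoters and 52.4% for all.

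Among the opioid receptors, *Oprk1* encodes the kappa receptor, the receptor of dynorphin. It lies at chr1:5588466-5606131 (mm10, plus strand, GENCODE M21). In WT brains *Oprk1* was at 9.07, 9.59 and 10.7 CPM (lowest, median and highest of 6 mice), and in *Tet2*-KO brains at 8.63, 14.6 and 17.2 CPM. The WT mice were close together, 5 of 6 *Tet2*-KO mice were above every one of them, and *Tet2*-KO replicate 5 was below them all. The fold difference was 1.42 (log2 0.51, SE 0.14, edgeR adjusted p = 0.115). Without *Tet2*-KO replicate 5 the log2 fold change was 0.60 (edgeR adjusted p = 0.00722), and with that mouse and WT replicate 2 both left out it was 0.63 (edgeR adjusted p = 0.00521). Scaled to the neuron markers it was 0.22 (edgeR adjusted p = 0.333).

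*Oprm1*, the mu receptor gene, is the chief target of morphine. Its level was 14.3, 16.8 and 18.2 CPM (lowest, median, highest) in WT and 13.9, 17.0 and 21.4 CPM in *Tet2*-KO mice. Of the 6 *Tet2*-KO mice, 2 were above and 2 below every WT mouse. The log2 fold change was 0.05 (SE 0.10, edgeR adjusted p = 0.816) and became -0.21 with neuron marker scaling. *Oprl1*, the nociceptin receptor gene and the most counted of this family, was at 33.1, 37.6 and 41.5 CPM in WT and 37.3, 41.1 and 45.3 CPM in *Tet2*-KO mice. Its fold was 1.11 (log2 0.15, SE 0.06, edgeR adjusted p = 0.173), or -0.12 on the log2 scale with neuron marker scaling. *Oprd1*, the delta receptor gene, was at 18.5 ± 2.23 CPM (SD, n = 6) and 21.4 ± 3.35 CPM, a difference within the spread between mice (edgeR adjusted p = 0.243). Of the 4 opioid peptide precursor genes, *Pdyn*, which gives dynorphin, had a value of 0.19 (log2 fold change, edgeR adjusted p = 0.192) and *Pomc*, which gives endorphin, had -0.59 on this scale (edgeR adjusted p = 0.180). *Penk* and *Pnoc* had an unadjusted p above 0.05.

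A ratio of both counts in the same mouse does not depend on scaling, and 6 such ratios of related receptors were compared. The ratio of *Oprk1* to *Oprm1* was -0.76 ± 0.14 on the log2 scale (SD, n = 6) in WT and -0.33 ± 0.24 in *Tet2*-KO mice, or 0.590 and 0.795 back on the plain scale. In *Tet2*-KO 5 of 6 mice were above every WT mouse. The difference of 0.43 had an exact two-sided permutation p of 0.00649 (adjusted over the 6 ratios, p = 0.0390, where 0.00216 is the smallest p possible before adjustment). It kept its direction with each mouse left out, between 0.36 and 0.50, but its adjusted exact p was then between 0.0519 and 0.0779 in 11 of the 12 cases and 0.0260 without *Tet2*-KO replicate 5. With a mouse left out fewer arrangements are possible and the smallest p possible is larger, so part of this rise lies in the test.

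**Figure D4:**
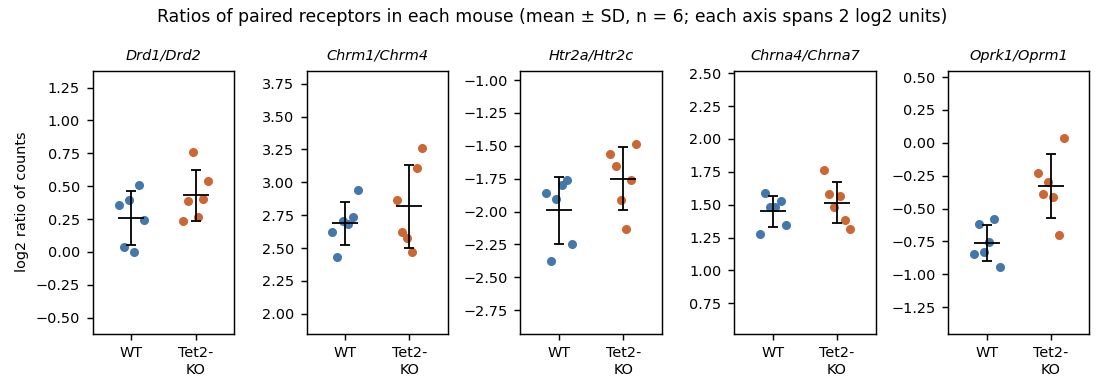
Log2 ratio of the read counts of paired receptor genes in each mouse, with the mean and SD of each group of 6, every axis spanning 2 log2 units. The *Oprk1*/*Oprm1* ratio is higher in 5 of 6 *Tet2*-KO mice than in every WT mouse, and for the other four ratios drawn the groups overlap more widely.

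The other ratios did not pass the adjusted threshold, and 4 of them are given here. The difference between groups was 0.17 for *Drd1*/*Drd2* (exact permutation p = 0.162), 0.24 for *Htr2a*/*Htr2c* (p = 0.130) and 0.13 for *Chrm1*/*Chrm4* (p = 0.394). For *Chrna4*/*Chrna7* it was 0.06 (exact permutation p = 0.437), and the adjusted values of these 4 lay between 0.325 and 0.525.

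Among the histamine receptors, *Hrh3* (chr2:180099465-180104488, mm10, minus strand), which restrains release of histamine and other transmitters, was at 54.7, 60.3 and 70.5 CPM (lowest, median, highest) in WT and at 60.5, 78.0 and 96.8 CPM in *Tet2*-KO mice. *Tet2*-KO replicate 5 was lowest of its group, and 4 of 6 *Tet2*-KO mice were above every WT mouse. Its fold was 1.27 (log2 0.35, SE 0.09, edgeR adjusted p = 0.115). It was 0.41 on the log2 scale without *Tet2*-KO replicate 5 (edgeR adjusted p = 0.0117) and 0.08 with neuron marker scaling (edgeR adjusted p = 0.605). Without WT replicate 2 the log2 value was 0.32 (edgeR adjusted p = 0.233), and without both mice it was 0.38 (edgeR adjusted p = 0.0150). Of the exon bases of *Hrh3*, 11.1% are shared with the transcript *Gm17180*, and reads there cannot be assigned without the strand. *Hrh1* was at 10.9 ± 1.17 CPM (SD, n = 6) and 11.7 ± 1.54 CPM, and *Hrh2* at 16.7 ± 0.971 and 16.6 ± 2.33 CPM, both within the spread between mice. The gene for the enzyme that makes histamine, *Hdc*, had a log2 fold change of -0.85 (SE 0.26, edgeR adjusted p = 0.123), and *Hnmt*, which inactivates it, one of 0.25 (SE 0.09, edgeR adjusted p = 0.151).

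In the muscarinic family, *Chrm1* (chr19:8663789-8683587, mm10, plus strand) had the most reads of all receptor genes. WT mice were at 75.4, 138 and 142 CPM (lowest, median, highest), and *Tet2*-KO mice at 127, 176 and 206 CPM. WT replicate 2 was far below the other WT mice, which lay from 131 to 142 CPM, and 4 of 6 *Tet2*-KO mice were above every WT mouse. The fold was 1.32 (log2 0.40, SE 0.16, edgeR adjusted p = 0.172), the log2 value was 0.29 without WT replicate 2 (edgeR adjusted p = 0.254), and it was 0.14 with neuron marker scaling (edgeR adjusted p = 0.206). *Chrm4*, the Gi-coupled muscarinic receptor of striatal neurons, was at 19.5 ± 2.94 CPM (SD, n = 6) in WT and 24.3 ± 6.67 CPM in *Tet2*-KO mice (edgeR adjusted p = 0.278). The *Chrm4* log2 fold change was 0.32, and 0.24 without WT replicate 2. The other three muscarinic genes had log2 fold changes between 0.14 (*Chrm2*) and 0.18 (*Chrm3* and *Chrm5*), none of which passed an unadjusted p of 0.05.

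Nicotinic receptors of the brain are mostly built from the products of *Chrna4* and *Chrnb2*, or of *Chrna7* alone. *Chrnb2* (chr3:89746195-89764632, mm10, minus strand) was at 58.9, 64.2 and 71.2 CPM (lowest, median, highest) in WT and at 65.4, 71.9 and 78.6 CPM in *Tet2*-KO mice. The 6 *Tet2*-KO values all exceeded the mean of WT, and 3 exceeded the WT range. The fold of 1.12 (log2 0.16, SE 0.06, edgeR adjusted p = 0.131) had the smallest SE of the 11 genes, and the log2 value became -0.10 with neuron marker scaling. Without WT replicate 2 the log2 value was 0.14 (edgeR adjusted p = 0.271), and without *Tet2*-KO replicate 5 it was 0.19 (edgeR adjusted p = 0.0359). Of the exon bases of *Chrnb2*, 16.3% are shared with *Adar*. Its partner *Chrna4* was at 56.2 ± 7.45 CPM (SD, n = 6) and 65.4 ± 10.6 CPM (log2 fold change 0.22, edgeR adjusted p = 0.270). Of the 6 *Tet2*-KO values 4 exceeded the WT range, and the log2 value was 0.15 without WT replicate 2. *Chrna7* was at 20.6 ± 3.18 and 22.8 ± 3.66 CPM (log2 fold change 0.15, edgeR adjusted p = 0.497), and its log2 value was 0.062 without WT replicate 2. With neuron marker scaling both were below 0, at -0.06 and -0.12.

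The products of *Chrna3*, *Chrna5* and *Chrnb4* form the nicotinic receptors of the habenula and of autonomic ganglia. *Chrna3* was at 4.08 ± 0.661 CPM (SD, n = 6) in WT and 3.56 ± 1.11 CPM in *Tet2*-KO mice, with 3 of the 6 *Tet2*-KO values under the WT range and a log2 fold change of -0.21 (SE 0.20, edgeR adjusted p = 0.558), the lowest of all receptor genes. *Chrna5* was at 3.00 ± 0.570 and 2.78 ± 0.773 CPM, and *Chrnb4* at 1.49 ± 0.385 and 1.53 ± 0.630 CPM. *Chrnb3* was at 3.01 CPM in both groups and *Chrna6*, its partner in dopamine neurons, at 2.06 ± 0.392 and 2.14 ± 0.540 CPM. The muscle subunit genes *Chrna1* and *Chrnb1* were at 0.950 ± 0.233 and 4.77 ± 0.559 CPM in WT and at 0.961 ± 0.230 and 4.47 ± 0.235 CPM in *Tet2*-KO mice.

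Of 8 genes for proteins that assemble or bind nicotinic receptors, 5 had an unadjusted p below 0.05 and were higher in *Tet2*-KO, and 1 was lower. Over all tested genes 10.8% were higher and 12.2% lower at this threshold. All of the 8 but *Rapsn* (201 reads) had at least 3000 reads, a range in which 18.1% of all tested genes were higher. *Lypd1*, which binds and restrains nicotinic receptors, was at 30.6 ± 3.65 CPM (SD, n = 6) in WT and 40.9 ± 7.12 CPM in *Tet2*-KO mice (log2 fold change 0.42, edgeR adjusted p = 0.115). *Tmem35a*, an assembly factor for the *Chrna7* receptor, and *Ly6h* each had a value of 0.24 (log2 fold change, edgeR adjusted p = 0.130 and 0.138). *Ly6e*, which is also expressed by immune and endothelial cells, had one of -0.58 (edgeR adjusted p = 0.136). Of the 6 genes for making, moving and breaking down acetylcholine, *Ache* had a value of 0.18 (log2 fold change, edgeR adjusted p = 0.123) and *Bche* one of -0.63 (edgeR adjusted p = 0.110), and the other four, *Chat* among them, had an unadjusted p above 0.05.

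Of the 13 serotonin receptor genes tested, 4 (30.8%) had an unadjusted p below 0.05 and were higher in *Tet2*-KO, against 10.8% of all tested genes. *Htr1d* (chr4:136423524-136444398, mm10, plus strand), a Gi-coupled receptor of nerve terminals, was at 1.94, 2.38 and 3.17 CPM (lowest, median, highest) in WT and at 2.28, 3.47 and 3.90 CPM in *Tet2*-KO mice. This is between 27 and 72 reads a mouse, and 4 of 6 *Tet2*-KO mice were above every WT mouse. The fold was 1.37 (log2 0.45, SE 0.15, edgeR adjusted p = 0.132), with a log2 value of 0.53 without *Tet2*-KO replicate 5 (edgeR adjusted p = 0.0275) and of 0.18 with neuron marker scaling. Without WT replicate 2 the log2 value was 0.39 (edgeR adjusted p = 0.274), and without both mice it was 0.47 (edgeR adjusted p = 0.0551). *Htr5a* (chr5:27842149-27855088, mm10, plus strand) was at 15.0, 19.7 and 21.02 CPM in WT and at 19.5, 23.2 and 24.8 CPM in *Tet2*-KO mice. Each of the 6 *Tet2*-KO values exceeded the mean of WT and 4 exceeded the WT range, for a fold of 1.21 (log2 0.27, SE 0.09, edgeR adjusted p = 0.133). Its log2 value was 0.31 without *Tet2*-KO replicate 5 (edgeR adjusted p = 0.0466) and 0.01 with neuron marker scaling. Without WT replicate 2, the lowest WT mouse, it was 0.22 (edgeR adjusted p = 0.271), and without both mice 0.25 (edgeR adjusted p = 0.0746).

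*Htr2a* (chr14:74640840-74709494, mm10, plus strand), the Gq-coupled receptor through which the classical hallucinogens act, was at 12.9, 17.7 and 20.9 CPM in WT and at 17.2, 20.8 and 26.7 CPM in *Tet2*-KO mice. WT replicate 2 was lowest, and 2 of 6 *Tet2*-KO mice were above every WT mouse. The fold was 1.23 (log2 0.29, SE 0.12, edgeR adjusted p = 0.163), with a log2 value of 0.22 without WT replicate 2 and of 0.03 with neuron marker scaling. *Htr6* (chr4:139061108-139075570, mm10, minus strand), a Gs-coupled receptor, was at 4.16, 5.68 and 7.14 CPM in WT and at 5.71, 6.68 and 9.15 CPM in *Tet2*-KO mice, for a fold of 1.25 (log2 0.32, SE 0.14, edgeR adjusted p = 0.187). Its log2 value was 0.25 without WT replicate 2 and 0.056 with neuron marker scaling. *Htr2c*, which had the most reads of this family and is strongly expressed by the choroid plexus, was at 62.0, 66.6 and 78.2 CPM in WT and at 65.2, 72.3 and 78.5 CPM in *Tet2*-KO mice. The groups overlapped almost fully (log2 fold change 0.06, SE 0.07, edgeR adjusted p = 0.656). Of 5 choroid plexus markers 2 were lower at an unadjusted p below 0.05, against 12.2% of all tested genes. The other eight serotonin receptor genes had an unadjusted p above 0.05, with log2 fold changes between -0.05 (*Htr2b*) and 0.28 (*Htr3a*).

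*Drd1* (chr13:54051183-54055705, mm10, minus strand), the Gs-coupled dopamine receptor of the direct striatal pathway, was at 19.1, 20.2 and 22.8 CPM (lowest, median, highest) in WT and at 18.04, 25.0 and 27.9 CPM in *Tet2*-KO mice. The *Tet2*-KO mice were divided, with 4 above every WT mouse and replicate 5 below every one. The fold was 1.18 (log2 0.24, SE 0.09, edgeR adjusted p = 0.158), and the log2 value was 0.31 without *Tet2*-KO replicate 5 (edgeR adjusted p = 0.0215) and -0.04 with neuron marker scaling. *Drd2*, the Gi-coupled receptor of the indirect pathway, was at 15.3, 16.2 and 19.7 CPM in WT and at 13.7, 17.3 and 23.7 CPM in *Tet2*-KO mice, with 2 *Tet2*-KO mice above and 2 below every WT mouse (log2 fold change 0.08, SE 0.13, edgeR adjusted p = 0.756, and -0.21 with neuron marker scaling). Of 8 markers of striatal medium spiny neurons, 1 was higher at an unadjusted p below 0.05, against 10.8% of all tested genes. Their sums ranged from 412 to 491 CPM in WT and from 361 to 617 CPM in *Tet2*-KO mice, with *Tet2*-KO replicate 5 lowest. Whether the amount of striatum in the samples moved *Drd1* was not tested.

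In the adrenergic family, *Adra1b* (chr11:43774606-43901210, mm10, minus strand), a Gq-coupled receptor, was at 11.6, 13.2 and 16.3 CPM (lowest, median, highest) in WT and at 13.96, 15.6 and 18.8 CPM in *Tet2*-KO mice. Each *Tet2*-KO value exceeded the mean of WT, and 2 of 6 exceeded the WT range. The fold was 1.19 (log2 0.25, SE 0.09, edgeR adjusted p = 0.150), or -0.02 on the log2 scale with neuron marker scaling. Without WT replicate 2 the log2 value was 0.21 (edgeR adjusted p = 0.308). *Adra1a*, which had the most reads of the family, was at 29.1 ± 1.86 CPM (SD, n = 6) and 31.5 ± 2.60 CPM (log2 fold change 0.11, edgeR adjusted p = 0.310, and -0.16 with neuron marker scaling). *Adra2a*, the Gi-coupled receptor at which xylazine acts, was at 26.0, 31.2 and 33.3 CPM in WT and at 23.7, 27.6 and 31.9 CPM in *Tet2*-KO mice. It was the only adrenergic receptor gene tested with a log2 fold change below 0 (-0.13, SE 0.08, edgeR adjusted p = 0.347), and 1 *Tet2*-KO value was under the WT range. *Adrb1*, a beta receptor of neurons, was at 27.4 ± 4.50 CPM (SD, n = 6) in WT and 29.6 ± 6.05 CPM in *Tet2*-KO mice, with a log2 fold change of 0.11 that was 0.043 without WT replicate 2 and -0.16 with neuron marker scaling.

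**Figure D5:**
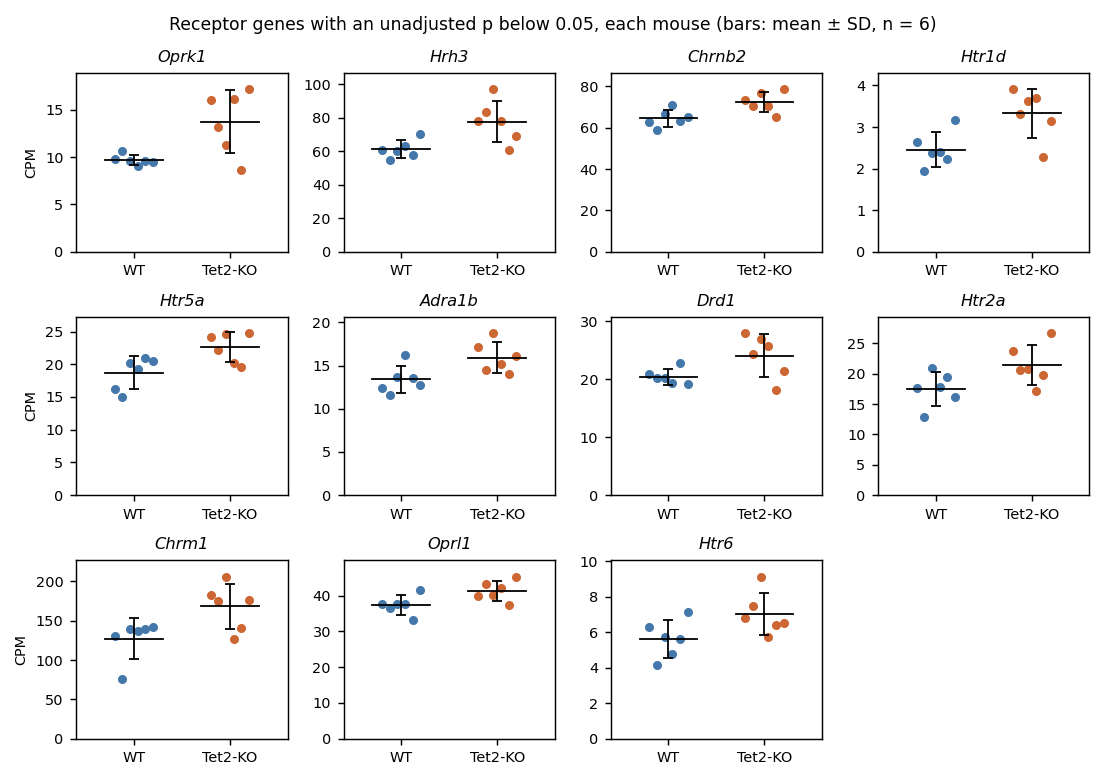
Level in CPM of the 11 receptor genes with an unadjusted p below 0.05, each point 1 mouse, with the mean and SD of each group of 6, each axis starting at 0. In none of the 11 do the groups separate, and for *Oprk1* 5 of 6 *Tet2*-KO mice lie above the WT range of 9.07 to 10.7.

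Genes for making and clearing the monoamines were compared beside their receptors. Of 5 synthesis genes tested none was higher and 2 were lower at an unadjusted p below 0.05, *Hdc* and *Gch1*, against 12.2% of all tested genes lower. *Gch1*, the first enzyme of tetrahydrobiopterin synthesis, had a log2 fold change of -0.80 (SE 0.17, edgeR adjusted p = 0.110). *Th*, the rate-limiting enzyme for dopamine, was at 7.61 ± 1.26 and 8.37 ± 2.43 CPM (SD, n = 6), within the spread between mice. *Ddc* and *Tph2* also had an unadjusted p above 0.05. Which cells gave the *Hdc* and *Gch1* reads was not tested. Of 10 transport and breakdown genes tested *Hnmt* alone had an unadjusted p below 0.05. Of 24 genes for G proteins and the enzymes downstream, 8 were higher and 3 lower at an unadjusted p below 0.05. Each of the 24 had at least 3000 reads, a range in which 18.1% of all tested genes were higher. Lower were 12.2% of all tested genes of any depth. *Gnao1*, the chief Gi-class alpha subunit of neurons, had a log2 fold change of 0.21, *Adcy2* one of 0.23 and *Gnai1* one of 0.22, whereas *Gnai3*, which non-neuronal cells also express, was at -0.30 (edgeR adjusted p between 0.110 and 0.124 for these 4). None of the genes of the 6 pathway lists passed an adjusted p of 0.05.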

How the data were processed

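RNA from 12 brains was depleted of ribosomal RNA by the authors, sequenced as paired reads, trimmed with Trimmomatic 0.36, aligned with STAR 2.5.2b and counted with featureCounts of Subread 1.5.2 per the submitters' processing notes, on mm10. The deposited values are whole-number counts per gene of uniquely mapped exonic reads, without normalization. The annotation release and the strand setting are not given in the sources used here, so reads of overlapping genes and near-identical copies are uncertain.

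From these counts, genes kept by filterByExpr were scaled with TMM and compared by quasi-likelihood F tests (edgeR 4.0.16, R 4.3.3) with a robust fit, no covariates, Benjamini-Hochberg adjustment over 20290 genes and a threshold of 0.05, a step tested on simulated data. CPM are counts scaled by library size and TMM, and the SE belongs to the log2 fold change. Symbols, exon lengths and coordinates came from GENCODE M21. Ratios used a pseudocount of 0.5 counts and exact two-sided permutation tests. Named genes were the receptor genes with an unadjusted p below 0.05, the most counted of each family, the members of the 6 ratios, and up to 4 genes of each pathway list with an unadjusted p below 0.05, and others were named to complete a family. The single values of 1 receptor gene, and the ratio that needs it, are not reported here, but both were kept in the counts and the adjustment. The receptor genes and lists were chosen with earlier results of these data known. Alternatives were DESeq2 1.42.0, voom of limma 3.58.1, other scalings and filters, a replicate block and each mouse left out. Leaving out WT replicate 2 with *Tet2*-KO replicate 5 and scaling to neuron markers were added after the data had been seen. Libraries of a group differed by more than sampling noise (chi-square per degree of freedom 2.00 to 27.8). No column belonged to another sample.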

Additional observations from a re-analysis of the deposited data

Results flagged for a closer look

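In 8 of 116 groups of 6 mice examined (both groups for the 52 receptor genes and the 6 ratios), 1 mouse stood apart from the other five by more than Dixon's 95% criterion allows, and chance flags about 1 in 20 groups, or 5.8 here. WT replicate 2 accounted for 4 of the 8. It was low in *Chrm1* (75.4 CPM, with the others from 131 to 142), *Chrm3* (35.2 CPM, with the others from 47.4 to 51.3), *Chrna7* (14.5 CPM, with the others from 20.8 to 23.7) and *Oprd1* (14.3 CPM, with the others from 18.3 to 20.5). WT replicate 3 was high in *Drd5* (2.94 CPM) and *Hrh1* (13.2 CPM), WT replicate 5 was low in *Chrna1* (0.495 CPM), and *Tet2*-KO replicate 5 was high in *Adrb3* (2.82 CPM). Of the exon bases of *Drd5*, 48.6% are shared with *Gm26560*, and of those of *Adrb3*, 24.9% with *Gm45470*.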

How the results depend on the processing

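The number of genes called among all tested was 5, and it became 1489 with DESeq2, 1863 with limma-voom, 44 without a filter on low counts, 0 with at least 10 counts in every library, 0 with the replicate block, 0 to 2257 with each mouse left out, 1554 without both WT replicate 2 and *Tet2*-KO replicate 5, and 0 with neuron marker scaling. Receptor genes called were 3 with DESeq2, 3 with limma-voom, 3 without both mice and 0 to 6 with each mouse left out, the 6 without *Tet2*-KO replicate 5. Receptor genes higher at an unadjusted p below 0.05 numbered 9 to 15 of 48 with each mouse left out, against 1508 to 2751 of all tested genes (20461 to 20547). With neuron marker scaling they were 0, against 18 of 20290. Receptor genes lower were 1 with limma-voom (*Chrna3*), against 2854 of 20290. With each mouse left out they were 0 to 1 (*Adra2a* without WT replicate 5 or *Tet2*-KO replicate 4), against 1622 to 2993 of all tested genes. With neuron marker scaling they were 4, against 7129 of 20290, and the receptors' median was -0.14.

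With neuron marker scaling the log2 fold change turned to -0.16 for *Adra1a*, -0.020 for *Adra1b*, -0.16 for *Adrb1*, -0.055 for *Chrna4*, -0.12 for *Chrna7*, -0.10 for *Chrnb2*, -0.037 for *Drd1*, -0.21 for *Drd2*, -0.21 for *Htr2c*, -0.12 for *Oprl1* and -0.21 for *Oprm1*. With each mouse left out the value ranged from -0.013 to 0.15 for *Drd2* and from -0.032 to 0.10 for *Oprm1*. The *Oprk1*/*Oprm1* difference ranged from 0.36 to 0.50. Of the 19 receptor genes followed over every alternative, the other 8, *Chrm1*, *Chrm4*, *Hrh3*, *Htr1d*, *Htr2a*, *Htr5a*, *Htr6* and *Oprk1*, kept their direction in each. Neuron marker scaling lowers all genes by nearly the same amount, so which genes turned follows from the size of their TMM value. In the main fit the turned genes were at 0.25 (*Adra1b*) or below, and those that kept their direction at 0.27 (*Htr5a*) or above. The split therefore says nothing more about single genes.

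Upper quartile scaling moved the median of all genes to 0.04 and the genes at an unadjusted p below 0.05 to 3009 higher and 2129 lower, against 2201 and 2477. Replicate numbers did not pair the mice (correlation of same-numbered mice -0.17 to 0.23, 1 of 6 WT mice correlating best with its own number). The replicate block gave 12 of 48 receptor genes higher at an unadjusted p below 0.05, against 1924 of all 20290 tested genes. The receptors' median was then 0.13. Receptor genes with fewer than 300 reads in all numbered 4 of the 48 tested, and their values carry the most counting error.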
